A study of Homo sapiens with 9 samples.

Results

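The tetraspanins are a family of membrane proteins with 4 transmembrane segments, and their transcripts were followed in a pancreatic cancer cell line after knockdown of STOML2. The members were the table rows whose only platform gene symbol was TSPAN with a number, or was CD9, CD37, CD53, CD63, CD81, CD82, CD151, UPK1A, UPK1B, PRPH2 or ROM1. This rule found 33 genes, each with 1 row, among 17709 rows with 1 symbol and 21448 rows in all. The rule uses symbols and no measured value, but it was set with earlier results of these data known. The cells were AsPC-1, an established line from a human pancreatic adenocarcinoma. The control group carried the blank pBAsi-hU6 NEO plasmid, and the groups sh1 and sh2 carried shRNA-1 or shRNA-2 against SLP-2, the product of STOML2, in the same plasmid. All 3 groups had been through 3 weeks of Geneticin selection, and each was grown from 1 single colony and measured on 3 arrays. A group is therefore 1 clone, so shRNA and clone cannot be told apart. The p-values rest on the spread among arrays within a clone, pooled over the 3 clones in 1 fit, and not on any spread between clones. The labels do not say that the arrays of a group were separate cultures, so the spread within a clone may be technical.

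Tetraspanins act mainly by gathering other membrane proteins, such as integrins, immunoglobulin-type partners and proteases, into membrane patches called tetraspanin-enriched microdomains or the tetraspanin web. CD9, CD63 and CD81 are the usual surface markers of extracellular vesicles, CD82 is known as a metastasis suppressor in carcinomas, and the TspanC8 members carry the protease ADAM10 out of the endoplasmic reticulum to particular membranes. CD151 is a partner of laminin-binding integrins, TSPAN8 is known for raised levels in pancreatic and colorectal cancers, and the uroplakins UPK1A and UPK1B build the plaques of the urothelium.

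STOML2, which encodes a protein of the inner mitochondrial membrane, fell by 5.35 (sh1) and 5.94 (sh2) on the log2 scale (limma, adjusted p = 2.31e-09 and 1.63e-09). Array medians lay between 6.57 and 6.65 log2 units, and arrays correlated at 0.994 to 0.996 within groups and 0.982 to 0.988 between groups across rows. Without detection calls, a signal under 4.21, the lower quartile over row means, was taken as near the background. Of 11 epithelial markers 9 were above the median signal of 6.61 in each group, with KRT8 at 16.20 in the control, while CEACAM5 (4.88) and CEACAM6 (5.61) were not. The mean over the epithelial list was 10.45 to 10.59 on control arrays, 11.30 to 11.37 on sh1 arrays and 10.87 to 10.96 on sh2 arrays. Its members went in both directions (limma, adjusted p under 0.05). KRT8, KRT18, EPCAM and CLDN4 were higher in both lines, EPCAM by 4.94 in sh1. KRT19 was lower in both, by 1.69 (sh1) and 0.57 (sh2). CDH1 was higher in sh1 and lower in sh2, and the others did not pass. Of 8 leukocyte markers, CD68 and CD79A were above the median signal. The leukocyte list averaged 5.50 to 5.72 on control, 5.36 to 5.42 on sh1 and 5.42 to 5.61 on sh2 arrays. None of the 5 endothelial markers and 2 of 5 fibroblast markers, COL1A2 and THY1, were above the median signal. COL1A2 fell by 1.18 (sh1) and 1.16 (sh2) (limma, adjusted p = 0.00165 and 0.00229). PTPRC fell by 0.70 and 0.65 (adjusted p = 0.0108 and 0.0191). In sh1 THY1 rose by 0.87 (adjusted p = 0.00138) and CD68 fell by 0.48 (adjusted p = 0.0339). The other leukocyte, endothelial and fibroblast markers passed in neither line. The part of these marker differences in the values of the tetraspanins was not tested.

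CD82 was about 4-fold lower in both knockdown lines, and it was the only member that passed the test in both. TSPAN13 and TSPAN8 were higher in sh2, and UPK1B and TSPAN5 were lower in sh1. CD63, CD81 and CD151 passed in neither line with the values as deposited. In sh1, 5 members passed (limma over 9 arrays, adjusted p under 0.05 over all rows), 1 higher and 4 lower. That is 15.2% of the family, where 18.8% of all rows passed, 9.76% as higher and 9.0% as lower. In sh2, 7 members passed, 5 higher and 2 lower. That is 21.2% of the family beside 16.3% of all rows, 8.33% higher and 7.98% lower. The family's share was thus near that of all rows in both lines. The median difference over the 33 members was 0.00 in sh1 and 0.06 in sh2, beside 0.02 over all rows in both. Of the 11 members that passed in sh1 or sh2 against the control, 4 passed in sh1 only, 6 in sh2 only and 1 in both. The same split over all rows was not counted, so these counts do not set the family apart from other genes. Both comparisons share the control arrays.

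**Figure D1:**
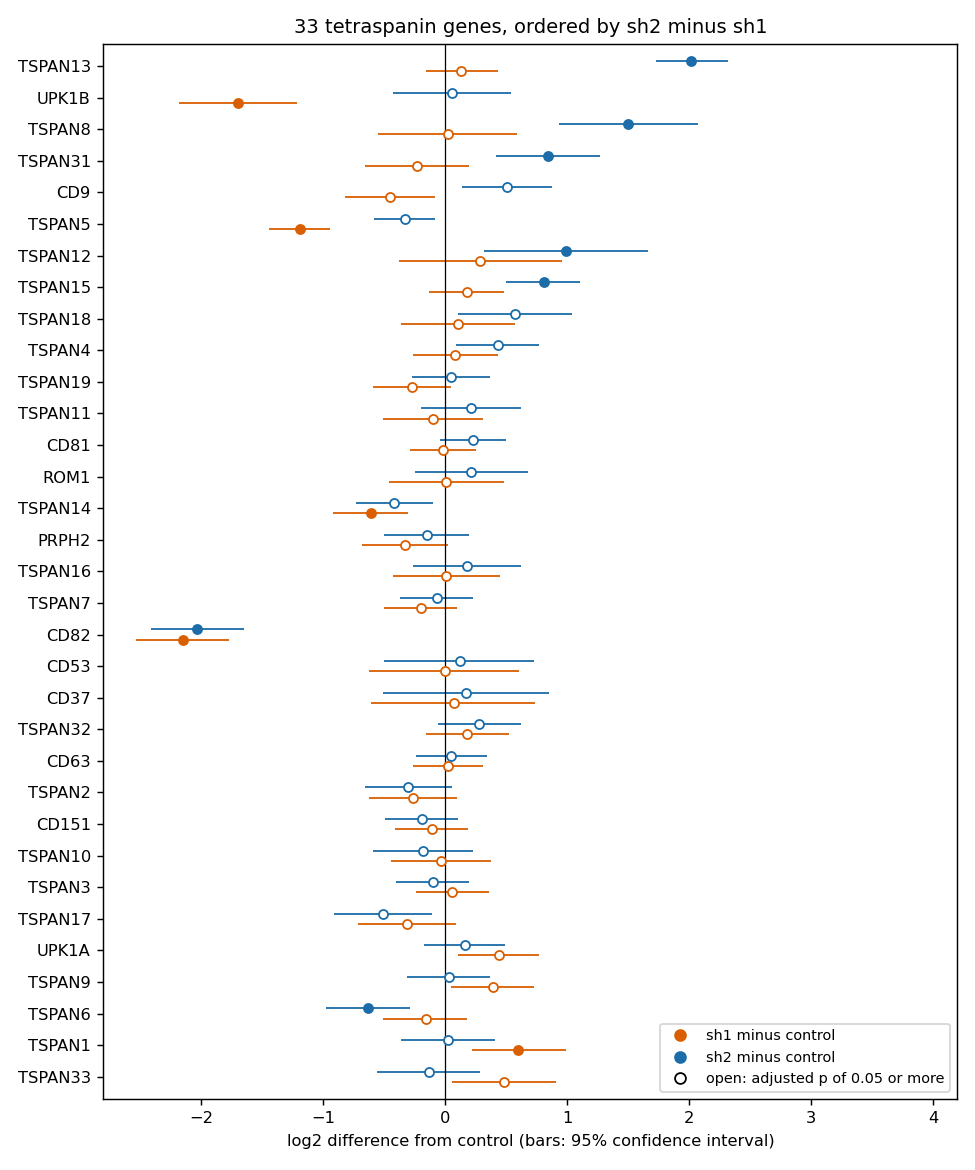
The log2 difference from the control is drawn on the horizontal axis for the 33 tetraspanin genes, ordered by sh2 minus sh1, in orange for sh1 and blue for sh2; bars are 95% confidence intervals from limma and filled points have an adjusted p under 0.05. CD82 lies near -2 in both lines, TSPAN13 at 2.02 in sh2 only, and UPK1B at -1.70 in sh1 only.

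The adhesion and integrin-associated members CD9, CD81, CD82, CD151, TSPAN4 and TSPAN8 held 1 lower member in sh1, and 1 higher and 1 lower member in sh2. That is 16.7% and 33.3% of the class, beside 18.8% and 16.3% of all rows. With 6 genes these shares are no result about the class. CD82 encodes a tetraspanin that restrains migration and integrin signalling. Its log2 signal was 10.62, 10.20 and 10.77 on the control arrays, 8.24, 8.57 and 8.32 on the sh1 arrays, and 8.71, 8.32 and 8.46 on the sh2 arrays. Every array of either knockdown line lay below every control array, and the knockdown lines overlapped each other. CD82 fell by 2.15 in sh1 (95% confidence interval -2.53 to -1.77, adjusted p = 6.04e-06) and by 2.03 in sh2 (-2.41 to -1.65, adjusted p = 1.12e-05), which is 4.45-fold and 4.09-fold. Between the lines its difference was 0.12, with an interval of -0.26 to 0.50 (adjusted p = 0.753). In RNA from whole cultures, fewer cells with a transcript and less of it per cell cannot be told apart.

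TSPAN8 binds E-cadherin and integrins and is a marker of some carcinoma vesicles. It read 2.98, 3.46 and 3.41 in the control, 3.55, 3.33 and 3.02 in sh1, and 4.32, 4.60 and 5.43 in sh2. All 3 sh2 arrays were above all others, while the control and sh1 arrays lay under the lower quartile of all rows. TSPAN8 rose by 1.5 ± 0.26 (SE) in sh2 (adjusted p = 0.00208) and differed by 0.02 in sh1 (adjusted p = 0.977). The control lay near the background, and the sh2 mean of 4.78 was itself under the median signal.

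CD9 is a partner of integrins and of the immunoglobulin-type proteins PTGFRN and IGSF8. It read 13.60, 13.67 and 13.63 in the control, 13.54, 13.23 and 12.79 in sh1, and 14.14, 14.14 and 14.15 in sh2. The sh1 arrays were all below and the sh2 arrays all above the control. Neither difference passed, at -0.45 for sh1 and 0.51 for sh2 (adjusted p = 0.0944 and 0.0636), and CD9 passed only between the lines. Over the arrays left out 1 at a time, the sh1 difference was -0.62 to -0.25 (adjusted p 0.0217 to 0.3). Among these fits it passed only without the first sh1 array. The sh2 difference was 0.49 to 0.53 (adjusted p 0.0212 to 0.157) and passed without the first or the third sh1 array. It also passed in the fit of sh2 and control alone and with rows under the lower quartile left out. With a trended and robust prior both differences passed. The SD of CD9 was 0.04 in the control, 0.38 in sh1 and 0.01 in sh2. All comparisons shared its SE of 0.17.

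CD81, a web organiser and common vesicle marker, had mean log2 signals of 14.15 ± 0.08 in the control, 14.13 ± 0.15 in sh1 and 14.38 ± 0.03 in sh2 (SD, n = 3). Its differences had intervals of -0.29 to 0.25 in sh1 and -0.04 to 0.50 in sh2. CD151 had means of 15.24 ± 0.15, 15.13 ± 0.12 and 15.05 ± 0.15 (SD, n = 3), with intervals of -0.41 to 0.19 and -0.49 to 0.11. These intervals leave out a change as large as that of CD82. TSPAN4, known from migrasomes, differed by 0.08 (sh1) and 0.43 (sh2) (adjusted p = 0.790 and 0.0908).

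The windows before the annotated starts of the 3 genes with the largest changes are printed below, because CD82 fell in both lines whereas TSPAN13 rose in sh2 only and UPK1B fell in sh1 only. Each is the 250 bases upstream of the start in RefSeq (GRCh38.p14, plus strand), at chr11:44565413-44565662 for CD82, chr7:16753505-16753754 for TSPAN13 and chr3:119173348-119173597 for UPK1B. Capitals mark matches, on either strand, to the GC box GGGCGG and the E-box CAGGTG.
CD82: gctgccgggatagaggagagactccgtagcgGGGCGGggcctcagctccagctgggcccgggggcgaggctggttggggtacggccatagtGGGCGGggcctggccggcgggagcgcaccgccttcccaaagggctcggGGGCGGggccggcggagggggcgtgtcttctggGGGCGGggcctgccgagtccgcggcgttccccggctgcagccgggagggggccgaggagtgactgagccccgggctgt
TSPAN13: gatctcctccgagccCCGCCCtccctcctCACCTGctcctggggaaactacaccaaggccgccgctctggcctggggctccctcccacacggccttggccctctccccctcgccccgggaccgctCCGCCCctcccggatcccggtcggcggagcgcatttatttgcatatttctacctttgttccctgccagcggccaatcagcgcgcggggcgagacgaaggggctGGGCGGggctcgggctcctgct
UPK1B: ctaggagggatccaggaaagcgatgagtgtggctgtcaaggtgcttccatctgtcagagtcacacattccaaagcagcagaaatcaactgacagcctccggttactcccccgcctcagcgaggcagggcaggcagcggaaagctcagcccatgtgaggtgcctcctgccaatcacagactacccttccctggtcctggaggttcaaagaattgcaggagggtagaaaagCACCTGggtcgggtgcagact

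The CD82 window is 77.2% G and C and holds 4 GC boxes and no E-box. The TSPAN13 window is 70.0% G and C with 3 GC boxes and 1 E-box, and the UPK1B window is 56.8% G and C with 0 GC boxes and 1 E-box. Median GC over all 35116 windows was 58.0%. The motifs were searched on both strands, and none contains another. The GC box was in 42.6% of all windows and 27 of 45 member windows, the E-box in 17.5% and 12 of 45, the AP-1 site TGANTCA in 6.57% and 3 of 45, and TATAAA in 10.7% and 1 of 45. The member windows belong to 25 of the 33 genes, several of which have more than 1 start. A match describes letters in a window and is not a measured binding site.

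The TspanC8 members, which escort ADAM10, the protease that cuts Notch receptors and cadherins, held changes in both directions. TSPAN5 and TSPAN14 fell in sh1, and TSPAN15 rose in sh2. TSPAN5 read 12.38, 12.40 and 12.36 in the control, 11.27, 11.07 and 11.23 in sh1, and 12.06, 12.02 and 12.07 in sh2. The 3 groups did not overlap, with the control highest and sh1 lowest. TSPAN5 fell by 1.19 ± 0.11 (SE) in sh1 (adjusted p = 2.36e-05), and its difference of -0.33 in sh2 did not pass (adjusted p = 0.0758).

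TSPAN15, the escort tied to cutting of N-cadherin, read 12.38, 12.41 and 12.23 in the control, 12.55, 12.63 and 12.37 in sh1, and 13.30, 13.20 and 12.94 in sh2. All sh2 arrays were above all others, and control and sh1 overlapped. It rose by 0.81 ± 0.14 (SE) in sh2 (adjusted p = 0.00189) and differed by 0.18 in sh1 (adjusted p = 0.448). TSPAN14 read 9.06, 8.83 and 8.88 in the control, 8.58, 8.13 and 8.23 in sh1, and 8.54, 8.53 and 8.45 in sh2. Every array of both lines was below every control array. TSPAN14 fell by 0.61 in sh1 (adjusted p = 0.0105), and its -0.42 in sh2 missed the threshold (adjusted p = 0.0715). That sh2 value passed after quantile normalization (-0.45, adjusted p = 0.0471) and without the first sh1 array (adjusted p = 0.0482). It did not pass when any other array was left out (adjusted p up to 0.224).

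The other TspanC8 members passed in neither line. TSPAN17 differed by -0.31 and -0.51 (adjusted p = 0.301 and 0.0859), and TSPAN33 by 0.48 and -0.13 (adjusted p = 0.112 and 0.725). The sh1 difference of TSPAN33 was called in the fit of sh1 and control alone and without the second sh2 array. TSPAN10 was under the lower quartile in all groups, at 3.72 to 3.89. ADAM10 itself was higher in both lines, by 0.81 (sh1) and 0.51 (sh2, adjusted p = 0.00143 and 0.0243). Its 40 nearest measured neighbours on chromosome 15 had a median difference of 0.29 in sh1 and 0.05 in sh2, and after their subtraction ADAM10 stayed called, at 0.51 and 0.46 (adjusted p = 0.0225 and 0.0423). With the 40 nearest neighbours above the median signal (expressed neighbours), a choice made after seeing the data, the medians were 0.62 and 0.18. The differences were then 0.19 and 0.33, and neither passed (adjusted p = 0.351 and 0.105). The sh2 call as deposited was lost without control array 1, control array 2 or sh2 array 3 (adjusted p up to 0.0969).

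UPK1B, a plaque protein of the bladder lining that carcinomas of other organs can also express, was lower in sh1 alone. It read 7.45, 7.22 and 6.72 in the control, 5.65, 5.04 and 5.61 in sh1, and 7.39, 7.24 and 6.93 in sh2. All sh1 arrays were below all others, and control and sh2 overlapped. UPK1B fell by 1.70 ± 0.22 (SE), or 3.24-fold, in sh1 (adjusted p = 0.00022) and differed by 0.06 in sh2 (adjusted p = 0.910). UPK1A differed by 0.44 (sh1) and 0.16 (sh2) (adjusted p = 0.0684 and 0.559). Its sh1 difference was called with rows under the lower quartile left out, in the fit of sh1 and control alone, and without the second sh2 array. The uroplakin partners UPK2, UPK3A and UPK3B were called in neither line by limma, and 0 of them had an unadjusted p under 0.05. UPK2 and UPK3A, markers of the urothelium, had group means of 4.17 to 4.49, close to the lower quartile of all rows, while UPK3B had means of 7.69, 7.64 and 7.46.

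CD63, the tetraspanin of late endosomes, lysosomes and vesicles, had mean signals of 13.58 ± 0.08 in the control, 13.60 ± 0.11 in sh1 and 13.63 ± 0.16 in sh2 (SD, n = 3). Its intervals were -0.26 to 0.31 in sh1 and -0.24 to 0.34 in sh2. The leukocyte members CD37, CD53 and TSPAN32 also passed in neither line. CD53 was under the lower quartile in every group (3.60, 3.60 and 3.72), as PTPRC, the pan-leukocyte marker, was in sh1 and sh2 (3.94 and 3.99, with 4.64 in the control). CD37 read 5.10 ± 0.40, 5.16 ± 0.10 and 5.27 ± 0.74 (SD, n = 3), so that a change of up to 0.85 lies within its sh2 interval. PRPH2 and ROM1, the scaffold proteins of photoreceptor discs, passed in neither line, and the measured photoreceptor markers PDE6A and SAG had means of 4.10 to 4.44.

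TSPAN12, a co-receptor that helps Norrin signal through FZD4 and LRP5, read 4.24, 5.06 and 5.81 in the control, 5.47, 5.11 and 5.40 in sh1, and 6.22, 5.81 and 6.06 in sh2. The lowest sh2 array equalled the highest control array, and the control spread of 0.79 (SD) was the widest of any group among the 12 genes described array by array. TSPAN12 passed in sh2 by a narrow margin, at 0.99 ± 0.31 (SE, adjusted p = 0.0471), and not in sh1 (0.29, adjusted p = 0.596). The sh2 call was lost without any 1 of 8 of the 9 arrays (adjusted p 0.058 to 0.135) and held only without the third control array. It was also lost after quantile normalization (adjusted p = 0.0526), in the fit of sh2 and control alone (0.0834) and after subtraction of expressed neighbours (0.84, adjusted p = 0.0775), but not of all 40 nearest neighbours (1.02, adjusted p = 0.0449). Without the first control array the difference was 0.60. FZD4 passed in neither line (-0.35 and -0.18), and LRP5, named after its values were seen, rose by 0.61 in sh2 (adjusted p = 0.00525).

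Among the 12 less studied TSPAN genes, TSPAN1 rose in sh1, and in sh2 TSPAN13 and TSPAN31 rose and TSPAN6 fell. TSPAN13 read 12.24, 12.05 and 12.32 in the control, 12.24, 12.55 and 12.22 in sh1, and 14.21, 14.21 and 14.26 in sh2. All sh2 arrays were above all others, and control and sh1 overlapped. TSPAN13 rose by 2.02 ± 0.13 (SE), or 4.07-fold, in sh2 (adjusted p = 1.33e-06) and differed by 0.13 in sh1 (adjusted p = 0.575).

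TSPAN31 lies next to CDK4 on chromosome 12. It read 11.33, 11.11 and 10.89 in the control, 10.76, 11.31 and 10.57 in sh1, and 12, 12.09 and 11.77 in sh2, so that only sh2 stood clear of the other groups. It rose by 0.84 ± 0.19 (SE) in sh2 (adjusted p = 0.0118) and differed by -0.23 in sh1 (adjusted p = 0.492). CDK4 was higher in both lines, by 0.43 (sh1) and 0.53 (sh2) (adjusted p = 0.0454 and 0.0191). The sh2 call of TSPAN31 ended without the third control array (0.73, adjusted p = 0.0505).

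TSPAN6, a negative regulator of innate antiviral signalling, read 10.85, 10.78 and 11.09 in the control, 10.94, 10.76 and 10.53 in sh1, and 10.12, 10.20 and 10.50 in sh2. The sh2 arrays were below every other array, and control and sh1 overlapped. TSPAN6 fell by 0.63 in sh2 (adjusted p = 0.0165) and differed by -0.16 in sh1 (adjusted p = 0.550). The call was lost without control array 3 (-0.54, adjusted p = 0.0681), sh2 array 1 (-0.56, 0.058) or sh2 array 2 (-0.60, 0.0584).

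TSPAN1, a tetraspanin of secretory epithelia, read 6.03, 6.07 and 6.14 in the control, 6.41, 7.05 and 6.59 in sh1, and 5.85, 6.25 and 6.21 in sh2. The sh1 arrays were above every other array. TSPAN1 rose by 0.60 in sh1 (adjusted p = 0.0321) and differed by 0.02 in sh2 (adjusted p = 0.955). The sh1 call was lost without any 1 of the 3 control arrays (0.58 to 0.63, adjusted p = 0.0957, 0.0835 and 0.0649), sh1 array 2 (0.42, 0.105) or sh1 array 3 (0.65, 0.0559).

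**Figure D2:**
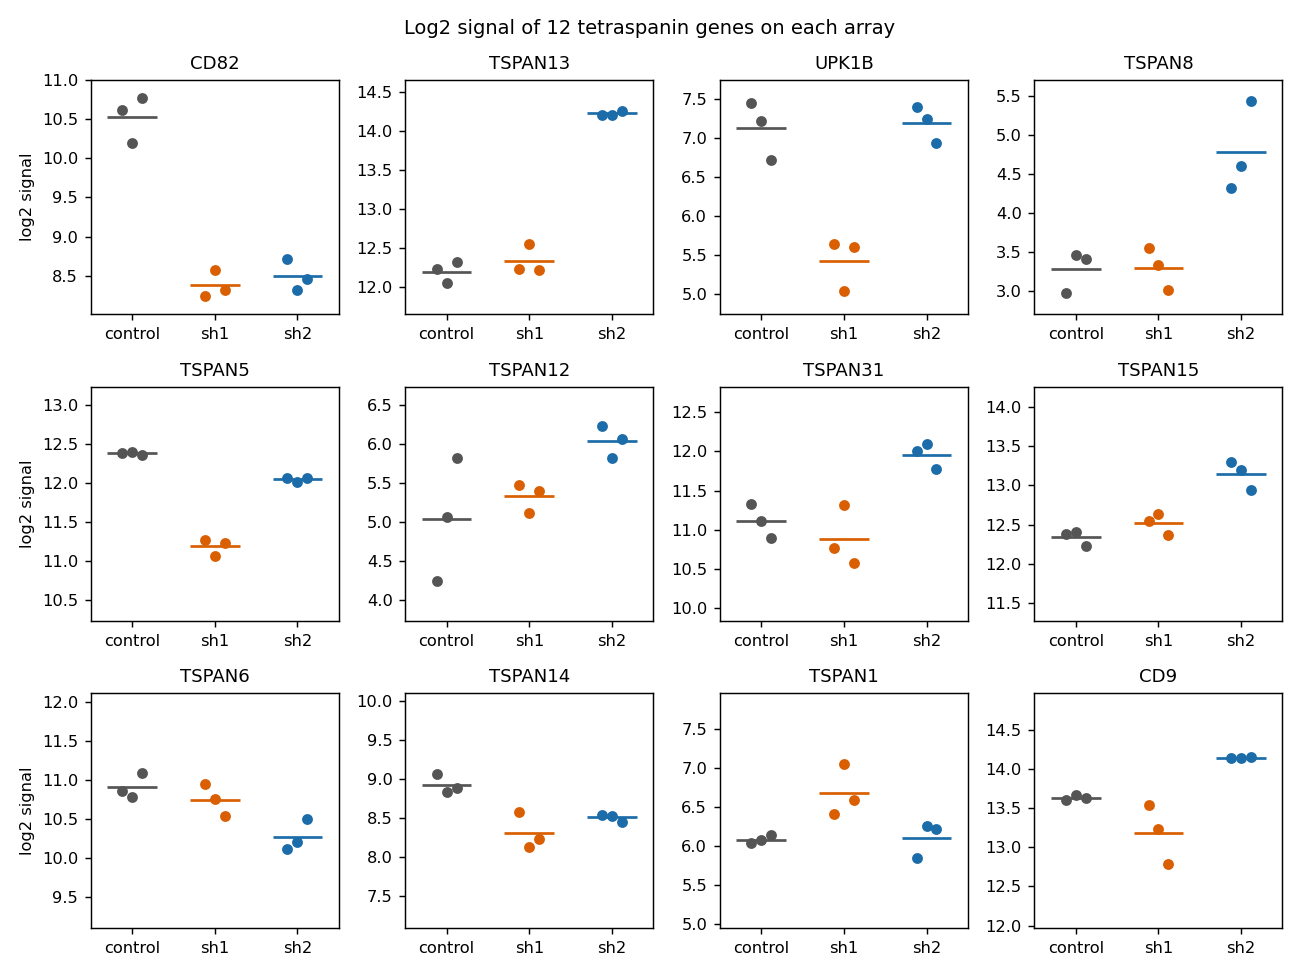
The log2 signal (vertical axis, a separate scale in each panel) of 12 tetraspanin genes is plotted for each control, sh1 and sh2 array; points are arrays and lines are group means over 3 arrays. The 11 genes that passed in sh1 or sh2 against the control are joined by CD9, which passed only between the lines; in CD82 the 6 knockdown arrays lie between 8.24 and 8.71, all under the control arrays.

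In sh2 minus sh1, 7 members passed and all were higher in sh2, which is 21.2% of the family. Of all rows 11.3% passed, 5.73% as higher and 5.57% as lower. The members were TSPAN13 (1.89, adjusted p = 3.28e-06), UPK1B (1.75, 0.000281), TSPAN8 (1.48, 0.00304), TSPAN31 (1.07, 0.00382), CD9 (0.96, 0.00322), TSPAN5 (0.86, 0.000443) and TSPAN15 (0.63, 0.0113). They did not share a pattern against the control. TSPAN13, TSPAN8, TSPAN31 and TSPAN15 were higher than the control in sh2, UPK1B and TSPAN5 were lower than the control in sh1, and CD9 passed against the control in neither. After quantile normalization TSPAN1 also passed, as lower in sh2 (-0.59, adjusted p = 0.0458), as it did after subtraction of the 40 nearest neighbours (-0.58, adjusted p = 0.0482). TSPAN6 passed as lower in sh2 after subtraction of expressed neighbours (-0.54, adjusted p = 0.0392), but not of all 40 (-0.51, adjusted p = 0.0648). The TSPAN15 difference missed the threshold without the third sh1 array (0.56, adjusted p = 0.0504). Over the 33 members the median of sh2 minus sh1 was 0.16 beside -0.01 over all rows. A higher estimate in sh2 was found in 23 members, of which only the 7 above passed. The share of all rows with a higher estimate was not counted.

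Of the remaining TSPAN genes, TSPAN18 differed by 0.11 (sh1) and 0.57 (sh2) (adjusted p = 0.803 and 0.0964), and TSPAN9 by 0.39 and 0.03. TSPAN3 had means of 12 ± 0.18 in the control, 12.06 ± 0.14 in sh1 and 11.89 ± 0.09 in sh2 (SD, n = 3), which overlap. TSPAN2, TSPAN7, TSPAN11, TSPAN16 and TSPAN19 had group means of 2.91 to 4.48 and differences of -0.30 to 0.21. The 21 members that passed in none of the 3 comparisons had differences of -0.33 to 0.48 in sh1 and of -0.51 to 0.57 in sh2. The bounds of their 95% intervals farthest from 0 were 0.91 in sh1, for TSPAN33, and 1.04 in sh2, for TSPAN18. These 2 intervals, 0.06 to 0.91 and 0.11 to 1.04, left out 0, but neither difference passed after adjustment over all rows. Other members had intervals nearer to 0, as CD63 in sh1 (-0.26 to 0.31). The 6 genes CD53, TSPAN2, PRPH2, TSPAN19, TSPAN10 and TSPAN16 were under the lower quartile in every group, where the arrays resolve little.

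Genes next to some members on the chromosome also differed from the control, not always in the same direction as the member. In RefSeq gene order, TSPAN13 stands between BZW2, which fell by 1.10 in sh1 and rose by 0.88 in sh2 (adjusted p = 0.000157 and 0.000954), and AGR2, which rose in both lines by 2.25 and 4.68 (adjusted p = 2.12e-06 and 7.27e-09). These genes were named for their position. Over the 40 nearest measured neighbours of TSPAN13 the median difference in sh2 was 0.27, and over its expressed neighbours 0.52. After subtraction TSPAN13 was still higher in sh2, by 1.75 and 1.51 (adjusted p = 2.14e-06 and 1.9e-05).

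CD82, UPK1B, TSPAN15 and TSPAN8 kept their calls under both subtractions. With all 40 neighbours subtracted, CD82 was at -2.21 in sh1 and -2.08 in sh2, and with expressed neighbours at -2.12 and -2.11. UPK1B was at -1.70 and -1.64 in sh1, and TSPAN15 at 0.79 and 0.88 in sh2. TSPAN8 was at 1.26 and 1.06 in sh2 (adjusted p = 0.00605 and 0.0117). TSPAN5 stayed lower in sh1 (-1.20 and -1.18), and in sh2 its -0.40 passed with all neighbours subtracted (adjusted p = 0.0461) but not with expressed ones (-0.37, adjusted p = 0.0567).

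The choice of neighbours decided some calls. TSPAN31 in sh2 stayed called with all 40 neighbours subtracted (0.53, adjusted p = 0.0499) and was not called with expressed ones (0.40, adjusted p = 0.163). In sh1 it was at -0.49 and not called with all neighbours (adjusted p = 0.058), and at -0.70 and called with expressed ones (adjusted p = 0.0176). TSPAN1 kept its sh1 call with all neighbours subtracted (0.64, adjusted p = 0.022) and lost it with expressed ones (0.55, adjusted p = 0.0511). CD9 in sh1 was at -0.49 (adjusted p = 0.0677) and -0.52 (adjusted p = 0.0482), and TSPAN3 at -0.35 (adjusted p = 0.0885) and -0.58 (adjusted p = 0.00671). TSPAN19 in sh1 was at -0.35 (adjusted p = 0.142) and -0.60 (adjusted p = 0.0137). CD151 in sh2 was at -0.26 (adjusted p = 0.199) and -0.41 (adjusted p = 0.035), so it was called lower with expressed neighbours. With all 40 neighbours subtracted sh1 had 1 higher and 4 lower members, as with the values as deposited, and with expressed neighbours 0 higher and 8 lower. In sh2 there were 5 higher and 3 lower with all 40 subtracted, and 3 higher and 3 lower with expressed ones. The cause of the neighbours' shifts was not tested.

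**Figure D3:**
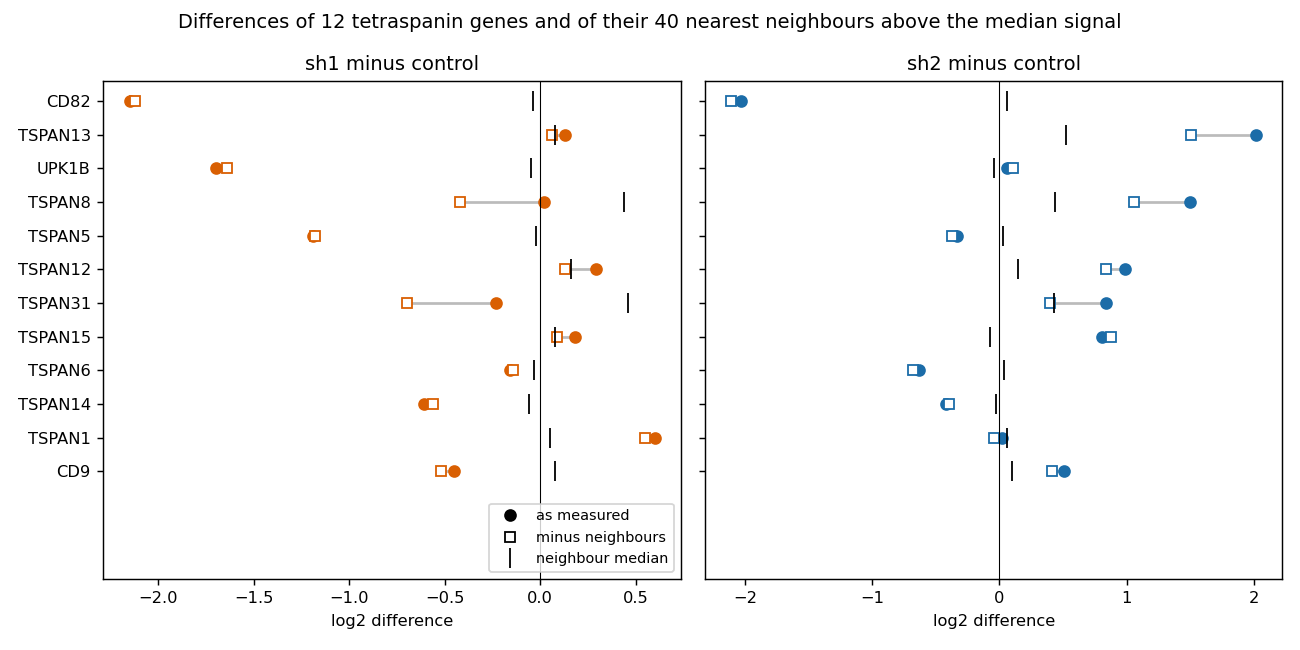
The log2 difference from the control (horizontal axis) is shown for 12 tetraspanin genes in sh1 (left) and sh2 (right); filled circles are the values as measured, open squares the values after subtraction of the 40 nearest neighbours above the median signal, and ticks the median difference of those neighbours. CD82 hardly moves in either line, whereas TSPAN31 in sh2 goes from 0.84 to 0.40 (0.53 with all 40 nearest neighbours, not drawn).

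Among genes for known partners of tetraspanins, CDH2, ITGA3 and ADGRG1 fell and EPCAM, CLDN7 and IFITM1 rose in both lines. The partner lists are described by counts and medians, with no test of a list. They were chosen with earlier results of these data known. A share above that of all rows is therefore no support for a change of the partners as a set. Of 12 integrin and immunoglobulin-type partners, 3 were called higher and 4 lower in sh1 (58.3%), against 2 higher and 3 lower for sh2 (41.7%), beside 18.8% and 16.3% of all rows, with medians of -0.07 and -0.15. The sh1 count was 5 to 7 when any 1 array was left out. ITGA3, the laminin receptor chain that binds CD151, had mean signals of 15.54 ± 0.07 in the control, 13.90 ± 0.11 in sh1 and 14.34 ± 0.17 in sh2 (SD, n = 3). It fell by 1.64 (sh1) and 1.20 (sh2) (adjusted p = 5.45e-06 and 7.56e-05). ITGA6, also a laminin receptor chain that partners CD151, rose by 0.58 and 1.17 (adjusted p = 0.0047 and 4.31e-05). ITGA7, a further laminin-binding chain of the list, differed by -0.09 and -0.23 and was not called.

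ITGB1, the shared beta chain, fell by 1.23 in sh1 (adjusted p = 2.32e-05) and differed by 0.08 in sh2. Its sh1 difference was -0.63 and still called after subtraction of the 40 nearest neighbours on chromosome 10, whose median was -0.61 (adjusted p = 0.00393). It was -0.30 and not called after that of expressed neighbours, whose median was -0.92 (adjusted p = 0.131). PTGFRN, a direct partner of CD9 and CD81, rose by 2.14 in sh1 (adjusted p = 2.72e-06) and differed by -0.25 in sh2 (adjusted p = 0.343). IGSF3 fell by 0.71 (sh1) and 1.37 (sh2) (adjusted p = 0.00355 and 4.18e-05). L1CAM, a neural adhesion molecule also found in carcinomas, fell by 1.42 in sh2 (adjusted p = 0.000221).

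Of 16 genes for ADAM10, ADAM17 and proteins they shed, 5 were called higher and 3 lower in sh1 (50%), against 1 higher and 2 lower for sh2 (18.8%, near the 16.3% of all rows; 18.8% of all rows passed in sh1). The sh2 count was 1 without control array 1, control array 2 or sh2 array 3. CDH2, which encodes N-cadherin, fell by 5.11 (sh1) and 6.08 (sh2) (adjusted p = 4.37e-09 and 1.63e-09), from a control mean of 11.92 ± 0.07 (SD, n = 3). CDH1, which encodes E-cadherin, rose by 2.03 in sh1 (adjusted p = 4.02e-06) and fell by 0.52 in sh2 (adjusted p = 0.0419), a call that was lost without any 1 of 6 arrays, each control included (adjusted p up to 0.137), and after subtraction of all or of expressed neighbours (-0.47 and -0.39, adjusted p = 0.0867 and 0.136). The shed chemokines moved in opposite directions in sh1, where CXCL16 rose by 1.90 (adjusted p = 2.36e-05) and CX3CL1 fell by 1.11 (adjusted p = 0.00229). BTC, an EGF-receptor ligand, rose by 0.66 in sh1 (adjusted p = 0.0254), a call lost without control array 1, 2 or 3 or sh1 array 1 or 2 (adjusted p up to 0.0913), and after subtraction of expressed neighbours (0.46, adjusted p = 0.0761) but not of all 40 (0.61, adjusted p = 0.0234).

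Of 16 other web partners measured, 3 were called higher and 3 lower in sh1 (37.5%), against 4 higher and 1 lower for sh2 (31.2%), where 18.8% and 16.3% of all rows passed. The sh2 count was 9 without sh2 array 1. EPCAM, which joins tetraspanins through CLDN7, rose by 4.94 (sh1) and 0.74 (sh2) (adjusted p = 1.77e-09 and 0.00361). CLDN7 rose by 1.04 and 1.24 (adjusted p = 0.000117 and 3.95e-05). ADGRG1, an adhesion receptor found in complexes with CD9 and CD81, fell by 2.73 and by 2.41 (adjusted p = 2.56e-05 and 8.54e-05). IFITM1, which associates with CD81, rose by 1.17 and 2.01 (adjusted p = 9.55e-05 and 1.58e-06). PRKCA, a kinase recruited by tetraspanins, fell by 1.00 in sh1 (adjusted p = 0.00158). HBEGF, whose membrane form associates with CD9, fell by 0.82 in sh1 (adjusted p = 0.0138), a call lost without control array 1, control array 2, sh1 array 2 or sh1 array 3, and after subtraction of all or of expressed neighbours (-0.51 and -0.41, adjusted p = 0.149 and 0.189).

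Of 19 measured genes among 21 of extracellular vesicle release, 2 were called higher and 2 lower in sh1 (21.1%), against 3 higher and 3 lower for sh2 (31.6%). All rows had 18.8%, near the list's share in sh1, and 16.3% in sh2. RAB27B, a GTPase that docks vesicle-bearing endosomes at the membrane, rose by 2.08 in sh2 (adjusted p = 1.57e-06) and differed by -0.11 in sh1. FLOT1, a membrane scaffold found in vesicles, rose by 0.88 and 1.18 (adjusted p = 0.00203 and 0.000324). SMPD3, a sphingomyelinase of vesicle budding, was called lower in sh2 (adjusted p = 0.00148), from a mean of 4.48 in the control to 3.55, which is near the background, so its difference of -0.93 has no exact size. HGS, an endosomal sorting protein, fell by 0.69 in sh2 (adjusted p = 0.014), a call lost without the third control array and after subtraction of all or of expressed neighbours (-0.43 and -0.30, adjusted p = 0.10 and 0.248).

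RAB11A, a GTPase of recycling endosomes on chromosome 15, rose by 1.06 (sh1) and 0.55 (sh2) (adjusted p = 5.56e-05 and 0.00638). Its 40 nearest neighbours had medians of 0.79 and 0.27, and after their subtraction neither difference passed (0.28 and 0.29, adjusted p = 0.137 and 0.124). With expressed neighbours, at 0.86 and 0.30, neither passed (0.22 and 0.27, adjusted p = 0.231 and 0.151). STAM, an endosomal sorting adaptor on chromosome 10, fell by 1.53 in sh1 (adjusted p = 0.000106). It stayed called after subtraction of the 40 nearest neighbours (-1.21, adjusted p = 0.000313) but not of the expressed ones, whose median was -1.13 (-0.40, adjusted p = 0.101). The L6 family, which also spans the membrane 4 times but lies outside the tetraspanin family, had 0 of 6 genes called by limma in either line. An unadjusted p under 0.05 was found for 1 of them in sh1 and 0 in sh2. With 18.8% (sh1) and 16.3% (sh2) of all rows called, 0 of 6 is no result about this family.

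**Figure D4:**
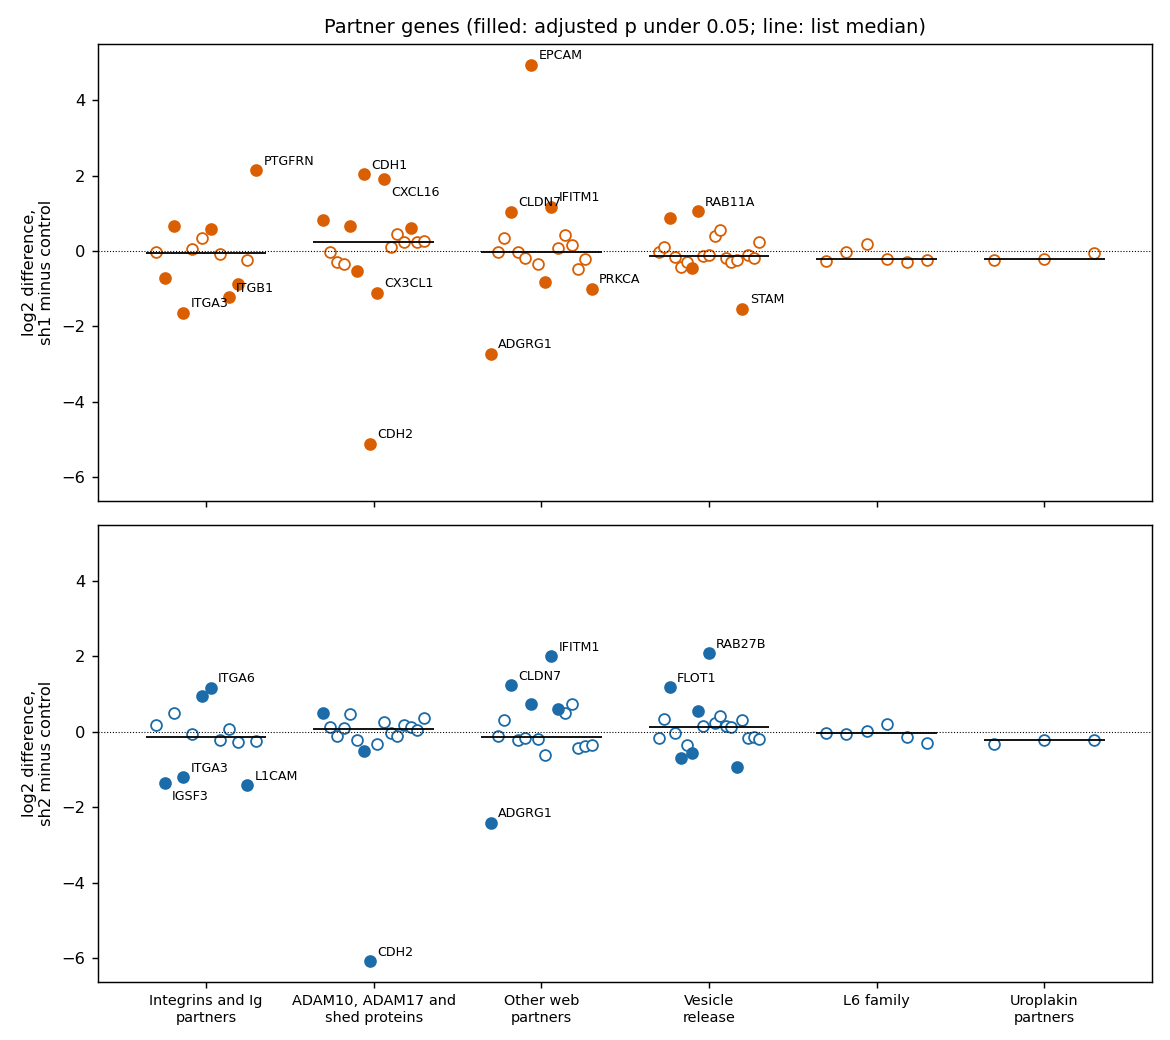
The log2 difference from the control (vertical axis) is plotted for the measured genes of 6 partner lists in sh1 (top) and sh2 (bottom); each point is 1 gene, filled points have an adjusted p under 0.05 and horizontal lines are list medians. CDH2 lies lowest in both lines, at -5.11 and -6.08, and EPCAM is highest in sh1 at 4.94.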

How the data were processed

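Total RNA (100 ng, Nucleospin RNA kit) was amplified and biotin-labelled for 1-colour whole-transcript arrays, per the labels' protocols. The deposited table holds log2 signals, read as such from their range (2.03 to 18.57). The authors made them with Transcriptome Analysis Console, per the submitters' processing notes. Its version and settings and the genome build were not given in the sources used here. No further scaling was applied.

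Gene symbols came from the platform annotation, and rows with several symbols or none were not named. limma 3.58.1 in R 4.3.3 fitted 1 linear model to the 9 arrays and all 21448 rows, with 3 contrasts, and p-values were adjusted by Benjamini-Hochberg over all rows. A call is an adjusted p under 0.05. The model gives the SE and the 95% intervals, and the SD is over 3 arrays. The number of arrays limits the precision. The script was tested on simulated data.

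The members, classes, partner lists and marker lists were chosen with earlier results of these data known. Every member that passed against the control is named, with up to 6 passing partners a list by the larger change in either line. Gene order and promoter windows came from RefSeq (GRCh38.p14). Alternatives were other scaling, filter, prior, samples, thresholds, a replicate block, neighbour subtraction and leaving out each array.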

Additional observations from a re-analysis of the deposited data

Results flagged for a closer look

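In 7 members the change against the control differed between the knockdown lines by a direct test (sh2 minus sh1, limma, adjusted p under 0.05). The difference was 1.89 for TSPAN13, 1.75 for UPK1B, 1.48 for TSPAN8, 1.07 for TSPAN31, 0.96 for CD9, 0.86 for TSPAN5 and 0.63 for TSPAN15, all on the log2 scale and all higher in sh2. That is 21.2% of the family, where 11.3% of all rows passed. In each of them the 3 sh2 arrays lay above the 3 sh1 arrays. The same arrays picked these members, so this adds no support. Each line is 1 clone, so a difference between shRNAs and one between clones cannot be told apart.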

How the results depend on the processing

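The counts of called members (5 in sh1, 7 in sh2 and 7 in sh2 minus sh1) were within 1.5 times of these under the alternatives run, with exceptions. At an adjusted p under 0.01 they were 3 in sh1 and 4 in sh2. With a minimum of 2-fold they were 3, 3 and 4. With a trended and robust prior sh2 had 11, gaining TSPAN5, TSPAN17, TSPAN4 and CD9. After subtraction of expressed neighbours, an alternative chosen after seeing the data, sh1 had 8, while subtraction of all 40 nearest neighbours gave 5, 8 and 8. Leaving out any 1 array gave 4 to 7 in sh1, 5 to 8 in sh2 and 6 to 8 between the lines. Same-numbered arrays were not treated as pairs in the main fit. Of 9 such pairs, 2 had deviations correlated over 0.1 (-0.0358 to 0.180). The pairs of first arrays were the highest, at 0.0856, 0.122 and 0.180. Whether the first arrays share an effect was not tested. With the replicate block the counts were 5, 6 and 8, TSPAN12 was lost in sh2 (adjusted p = 0.0533) and TSPAN1 was gained between the lines (-0.58, adjusted p = 0.0375).

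Among the 12 members that passed in any comparison, signs turned only for differences that were not called. The other 21 members were not followed through every alternative. Some of their uncalled differences also turned, as TSPAN17 in sh2 did after subtraction of expressed neighbours (-0.51 to 0.10). In sh1, TSPAN12 was -0.11 without control array 1 (-0.11 to 0.68 over the arrays left out). TSPAN8 was -0.23 or -0.42 after subtraction of all or of expressed neighbours, -0.13 without control array 1 and -0.11 without sh1 array 1 (-0.13 to 0.16). In sh2, TSPAN1 was -0.04 after subtraction of expressed neighbours, -0.05 without sh2 array 2 and -0.03 without sh2 array 3 (-0.05 to 0.15). UPK1B in sh2 was -0.15 without control array 3 and -0.05 without sh2 array 1 (-0.15 to 0.22). The cause was not tested. CD82 kept its direction and call in both lines under every alternative run. TSPAN8 in the control and sh1 and the 6 members under the lower quartile in all groups are limited by signal near the background, and the filter on low rows left TSPAN8 out.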

Other observations

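Several tetraspanin genes lie close to each other on chromosome 11 in RefSeq order. Differences within these pairs were not tested. CD82 fell by 2.15 (sh1) and 2.03 (sh2), while TSPAN18, the next measured gene, differed by 0.11 and 0.57 and passed in neither line (limma, adjusted p = 0.803 and 0.0964). TSPAN32 and CD81 stand side by side, differed by 0.28 and 0.23 in sh2, and passed in neither line. CD151 and TSPAN4 flank POLR2L, and CD151 differed by -0.19 and TSPAN4 by 0.43 in sh2, neither called. Of the 33 members, 7 lie on chromosome 11 and 7 on chromosome 12. These pairs were chosen after their values were seen.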
